A study of Homo sapiens with 8 samples.

Results

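Antisense long noncoding genes are transcribed from the strand opposite a protein-coding gene, here called the partner. The genes described were all those that GENCODE release 29 types as antisense, without KCNQ1OT1 and OIP5-AS1, and each was set beside the protein-coding gene whose locus it overlaps most on the opposite strand. This gave 5582 antisense genes. Of these, 3290 had a transcript in the deposited tables, and 3138 had one of 300 nt or more and were summed among 38765 genes in all. The other 2292 antisense genes had no transcript matched in the tables and 152 had only shorter ones, so they carry no value below.

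The libraries were made from total RNA of HEK293 cells, an established human embryonic kidney line, after transfection. Knockdown cells got an AUF1 siRNA and their control a control siRNA, and overexpressing cells got Flag-AUF1 as the isoform p37, as p40, as p42, as p45 or as these 4 isoforms together, with an empty vector as their control. Each of these 8 groups held 1 library, which leaves every difference without a replicate check or a test. AUF1 siRNA was set against control siRNA, and the 5 overexpression libraries were each set against the empty vector, so they share that control. Values are FPKM, mapped fragments normalised to transcript length and library size, summed per gene and scaled between libraries. A ratio is log2 of the 2 values after 1 FPKM was added to each, which understates the change of low genes, and a gene was called at a ratio of 1 or more in size, that is 2-fold.

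Antisense transcripts can act in cis on the locus they overlap, by bringing chromatin regulators to it, by colliding with its transcription or by pairing with its RNA, and many have no known role. They are often spliced, rare and nuclear, and several lie in the HOX clusters. AUF1, the product of HNRNPD, binds AU-rich and U-rich stretches of messenger and long noncoding RNA, the pentamer AUUUA being the best known of these, and is known for recruiting the decay machinery. The sources used here do not say whether the libraries kept strand, so reads of an antisense gene and of an overlapping exon of its partner cannot be told apart.

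Sequences of the members on which the results turn are given first, from the transcripts of GENCODE release 29, 5′ to 3′ and written as DNA. The 325-nt C1RL-AS1 transcript ENST00000535078 (hg19 chromosome 12, 7273154 to 7275097, 2 exons) carried the highest ratio among antisense genes in the knockdown and none of its bases lie on a protein-coding exon. Bases 9 to 128 are shown, with the 5 bases on each side of its splice junction in capitals.
C1RL-AS1: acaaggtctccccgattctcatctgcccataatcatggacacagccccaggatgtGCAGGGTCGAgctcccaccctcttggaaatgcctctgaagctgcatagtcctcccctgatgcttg

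Of the 10 members named for the knockdown, 4 had an ATTTA, the DNA spelling of the AUF1 pentamer, in their main transcript outside any protein-coding exon, and CYP1B1-AS1 had no sequence for it. The 60-nt windows below show it in capitals, and the SNHG7 window holds 2 of the 3 in its transcript.
AC034206.1: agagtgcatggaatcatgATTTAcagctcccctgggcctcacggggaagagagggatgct
IFNG-AS1: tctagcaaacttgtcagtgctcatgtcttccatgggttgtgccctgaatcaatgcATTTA
AL359555.1: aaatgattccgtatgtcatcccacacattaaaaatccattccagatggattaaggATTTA
SNHG7: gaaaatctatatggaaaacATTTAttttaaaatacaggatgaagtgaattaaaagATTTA

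The next sequences show what exonic overlap means for the measurement. MIF-AS1 and MIF share 687 exonic bases on opposite strands, POT1-AS1 and POT1 share 111, and 30 bases from the middle of the longest shared run are given for each gene. The lower line of each pair is the reverse complement of the upper one, so an unstranded read from here fits both genes.
MIF-AS1: gcccctcccccgcccctccgcgactccgcg
MIF: cgcggagtcgcggaggggcgggggaggggc
POT1-AS1: ccgcccgcggtggaccagctgcgtaacggt
POT1: accgttacgcagctggtccaccgcgggcgg

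By position, 3041 of the 5582 antisense genes (54.5%) lay wholly inside their partner, 870 overlapped it head to head, with both start sites in the overlap, and 805 tail to tail. Another 191 reached around the partner and 675 overlapped no protein-coding gene on the opposite strand. An exon lay over a partner exon in 2863 of them (51.3%). The members that reached measurable levels differed in makeup. Of the 385 measured in the knockdown comparison, 145 lay inside the partner (37.7%), 66 were head to head, 87 tail to tail, 41 around and 46 without overlap. Only 1 of these 385 had a single exon, against 684 of all 5582.

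Antisense genes were low in these cells. Of the 3138 summed, 969 were listed at 0 in all 8 libraries and 1002 were above 0 in all 8. A mean of 5 scaled FPKM or more was reached by 403 of them (12.8%), by 303 of 4132 lincRNA genes (7.33%), which are long noncoding genes outside protein-coding loci, and by 9129 of 19056 protein-coding genes (47.9%). Among genes that reached it, the median level was 10.7 FPKM for antisense, 10.00 for lincRNA and 16.9 for protein-coding genes. A mean of 20 FPKM or more was reached by 98 antisense genes and 100 or more by 9. For 355 of the 403, the partner had a value too, and the antisense gene had the higher mean in 167 pairs and the partner in 188. In 37 of these pairs the partner stood under 1 FPKM.

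Depth and makeup differed between libraries in ways that touch these genes. Coverage per FPKM, a measure of relative depth, was 0.246 in the control siRNA library, 0.322 in the AUF1 siRNA library and between 0.213 and 0.345 in the others. Antisense genes made up 1.31% of the gene-level FPKM of the control siRNA library, 2.0015% of the AUF1 siRNA library and 1.68 to 1.79% elsewhere. The control siRNA library was thus the low one and the AUF1 siRNA library the high one. HOXB-AS3, listed at 0 in the control siRNA library and at 323 to 586 FPKM in the rest, adds nothing to the low share. Transcripts of at least 300 and under 500 nt held 40.6 to 48.2% of the FPKM of antisense genes, against 25.9 to 30.3% for all genes, and per the labels' protocols the fragments were size-selected at 250 to 300 bases. Weighted by length, 12.7% of the FPKM in the control siRNA library, 18.6% in the AUF1 siRNA library and 19.8% in the p42 library was in transcripts placed with no gene. The AUF1 siRNA library kept 56.2% of the HNRNPD level of its control, 167 of 297 FPKM, and the overexpression libraries held 9.61 to 15.6 times the HNRNPD level of the empty vector. The HEK293 genes VIM, KRT8, KRT18, NEFM, PAX2 and INA were at 3.46 FPKM or more in all 8 libraries. Of the fibroblast markers, the highest was the collagen gene COL1A1 at 0.90 to 5.67 FPKM, and the red cell gene HBB was at 0 in all 8.

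The most abundant antisense gene was NUTM2A-AS1 (ENSG00000223482, hg19 chromosome 10, 88963610 to 89102369). Its control siRNA library held 570 FPKM, the AUF1 siRNA library 520 and the empty vector library 635. Overexpression of p37, p40, p42, p45 and all isoforms gave 589, 531, 670, 575 and 655. No library was 2-fold from its control. Its transcripts under 500 nt held 90.5% of this level. AC074386.1, around the olfactory receptor gene OR2A1, ranged from 225 to 276 FPKM, all of it from a 336-nt transcript, while OR2A1 was listed at 0 everywhere. ZFAS1, a host of small nucleolar RNAs, ranged from 93.9 to 125 FPKM. CKMT2-AS1, around the mitochondrial creatine kinase gene CKMT2, ranged from 55.7 with the AUF1 siRNA to 100.2 with p42, and CKMT2 from 12.6 with the AUF1 siRNA to 23.9 with p42.

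Several of the other abundant antisense genes lie on exons of highly expressed partners. MIF-AS1, tail to tail with the cytokine gene MIF, was at 217 FPKM in the control siRNA library, at 275 in the AUF1 siRNA library and at 134 in the empty vector library. Overexpression of p37, p40, p42, p45 and all isoforms gave 170, 211, 174, 159 and 115. MIF stood at 179, 236, 136, 145, 189, 176, 145 and 107 in the same order. In both genes the AUF1 siRNA library was the highest and the all-isoform library the lowest. AL133415.1 lies inside VIM, the intermediate filament gene vimentin, with 87.7% of its 706-nt transcript on VIM exons, and ranged from 113 to 134 FPKM against 170 to 208 for VIM. AC091180.3 lies inside PHB, which encodes the mitochondrial scaffold protein prohibitin, with all 963 of its bases on PHB exons, and ranged from 106 to 131 against 401 to 525 for PHB. How much of these levels are reads of the partner cannot be told apart.

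**Figure D1:**
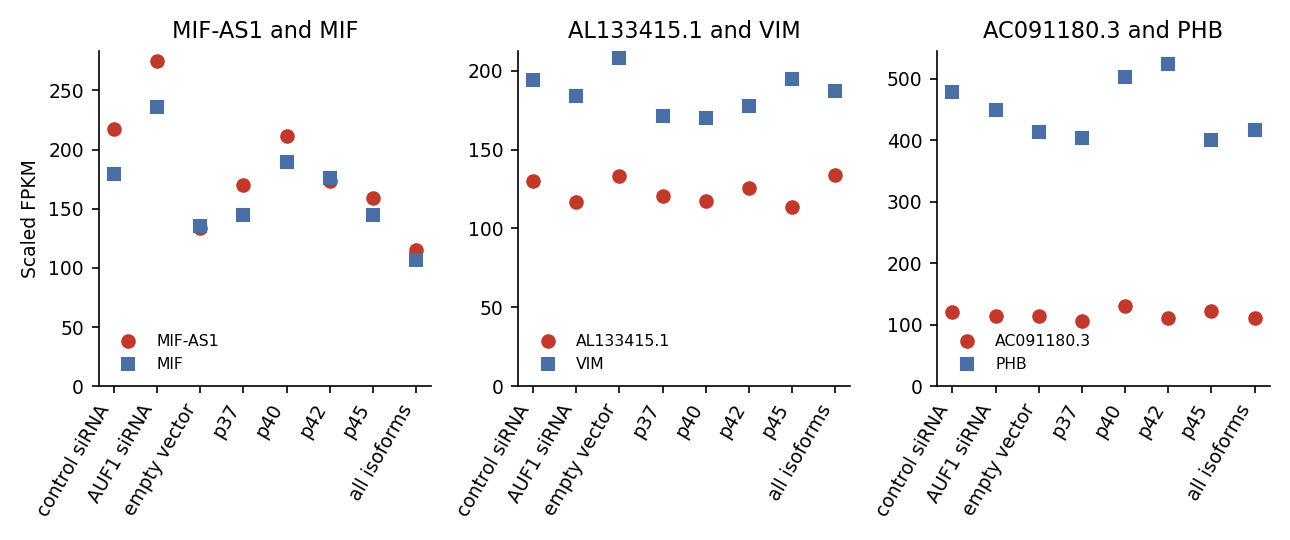
Scaled FPKM (vertical axis, linear from 0) of 3 abundant antisense genes (circles) and of the protein-coding partners whose exons they overlap (squares) in the 8 libraries (horizontal axis). MIF-AS1 and MIF stand at similar levels in each library, highest in the AUF1 siRNA library and lowest in the all-isoform library, while AL133415.1 and AC091180.3 stay below VIM and PHB throughout.

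Exact zeros were unevenly spread. Of the 217 antisense genes at a mean of 5 FPKM or more with an exon on a protein-coding exon, 67 were listed at 0 in at least 1 library (30.9%). Of the 186 with no such overlap, 5 were (2.69%), close to the 4.16% of protein-coding genes and 4.29% of lincRNA genes at that level. HOXB-AS3, head to head with the developmental transcription factor gene HOXB3, was listed at 0 with the control siRNA, while the other 7 libraries stood between 323 and 586 FPKM, all from a 419-nt transcript. HOXB3 was listed at 25.2 FPKM with the control siRNA, at 21.9 with p45 and at 0 in the other 6 libraries. TRAF3IP2-AS1 was listed at 0 with the empty vector and with p37 and at 119 to 224 FPKM in the other 6. A zero in such tables can be a failed estimate, and genes that every cell uses were also listed at 0 throughout, among them the RNA exosome subunit genes EXOSC1 and EXOSC3. In the 6 comparisons reported here, no ratio was taken for a gene listed at 0 in either library.

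In the AUF1 siRNA library, antisense genes were more often higher than the control siRNA library than genes in general. Of 385 measured, 73 were called higher (19.0%) and 8 lower (2.08%), where all 10638 measured genes gave 10.1% higher and 3.27% lower. Of the 73, 26 had a mean under 5 FPKM in the libraries outside this comparison and passed the minimum only through the libraries compared. The median ratio of the antisense genes was 0.25, with 252 above 0 and 133 below, against -0.04 for all genes and -0.07 for protein-coding genes. Among protein-coding genes 8.53% were called higher. The lincRNA genes stood further out, with 132 of 335 called higher (39.4%) and a median of 0.65. Antisense genes thus lay between protein-coding and lincRNA genes in this comparison.

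**Figure D2:**
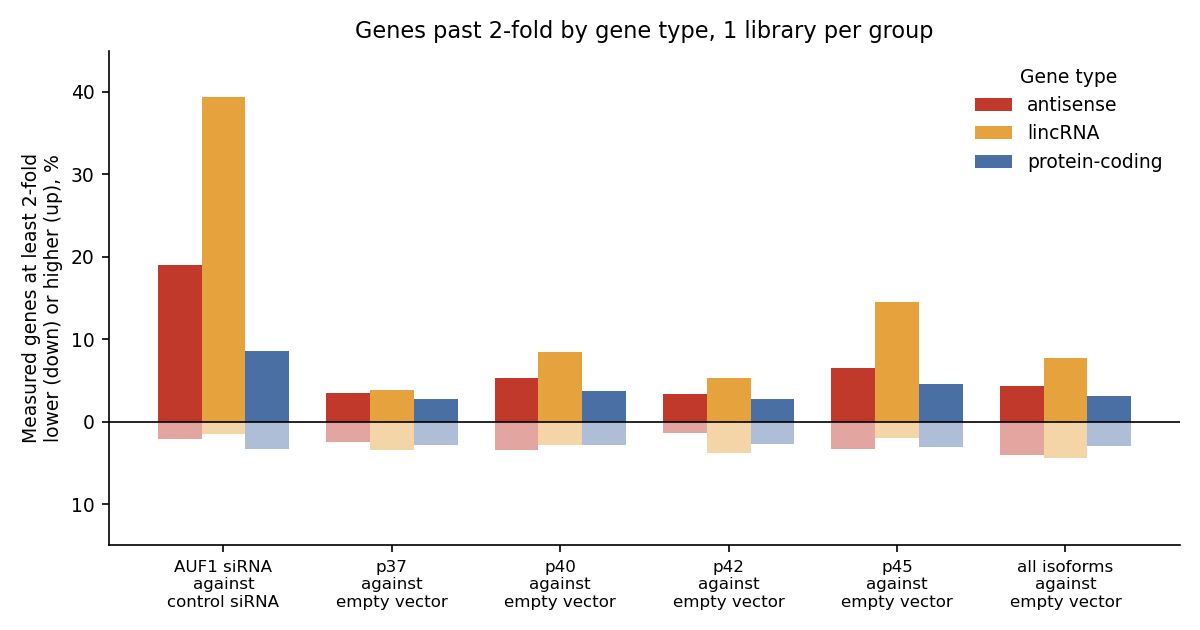
Percent of measured genes at least 2-fold higher (solid bars, upward) or lower (pale bars, downward) in each of the 6 comparisons, by gene type. In the knockdown 19.0% of antisense, 39.4% of lincRNA and 8.53% of protein-coding genes were higher, and the upward bars of the 5 overexpression comparisons, all against 1 empty vector library, are shorter.

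The order of the gene types was the same among genes of like level, taken as the mean of the 6 libraries outside this comparison. Under 5 FPKM there, 26 of 61 antisense genes were called higher (42.6%), against 63.3% of lincRNA and 32.0% of protein-coding genes. These genes reached the minimum of 5 FPKM only through the libraries compared, so a high share is partly set by that minimum, and 26 of the 73 higher members are among them. At 5 to 10 FPKM, 21 of 132 antisense genes were called higher (15.9%), against 39.1% of lincRNA and 11.2% of protein-coding genes. At 10 to 20 FPKM, 18 of 103 were (17.5%), against 35.7% and 7.31%. At 20 FPKM or more, 8 of 89 were (8.99%), against 16.9% and 5.09%. The share was above that of all genes with and without exonic overlap. With no exon on a protein-coding exon, 43 of 197 antisense genes were higher (21.8%) and 5 lower, with a median ratio of 0.28. With such an exon, 30 of 188 were higher (16.0%) and 3 lower, with a median of 0.20. By position, the median was 0.08 for members inside the partner (20 of 145 higher), 0.40 head to head (15 of 66), 0.23 tail to tail (15 of 87), 0.36 around the partner (10 of 41) and 0.44 with no overlap (13 of 46).

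Against the empty vector library in place of the control siRNA library, 67 of 420 antisense genes were higher (16.0%) and 8 lower, where 9.05% of all genes were higher, and the median was 0.12. Of the 73 higher members, 46 were also 2-fold above the empty vector library, and 58 had their highest value of all 8 libraries with the AUF1 siRNA. For 27 of the 73 the highest other library was p45. Of the 8 lower members, 2 were also 2-fold below the empty vector. The matching counts over all genes called were not taken, so it is not known whether antisense genes differ from them here. The bounds that Cufflinks gives for each transcript, summed per gene, did not overlap between both libraries for 52 of the 73 higher members (71.2%) and for 4 of the 8 lower ones, against 73.6% and 76.1% of all genes called higher and lower. These bounds cover estimation within a library only. The deeper AUF1 siRNA library listed 1767 antisense genes above 0 and the control siRNA library 1441, and the part of depth in the result was not tested.

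The 8 antisense genes with the highest knockdown ratios, among those also 2-fold above the empty vector, stood at 2.15 FPKM or less in the control siRNA library, which a choice by ratio favours. C1RL-AS1 (ENSG00000205885, hg19 chromosome 12, 7260648 to 7275097) lies head to head with C1RL, a gene for a complement C1r-like protease. Its control siRNA library held 1.85 FPKM, the AUF1 siRNA library 40.4 and the empty vector library 2.69. Overexpression of p37, p40, p42, p45 and all isoforms gave 3.45, 25.5, 32.9, 2.20 and 3.80. The AUF1 siRNA, p40 and p42 libraries were high and the other 5 low, a split taken from these values. The ratio was 3.86 in the knockdown, with Cufflinks bounds of 27.1 to 53.8 FPKM against 1.06 to 2.65. All of this rested on the 325-nt transcript shown above, listed at 37.3, 23.4 and 30.3 FPKM in these 3 libraries and at 0 in the others. Without transcripts under 500 nt the ratio was 0.56. C1RL itself ranged from 14.9 to 31.5 FPKM and was not called in the knockdown (0.34).

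AC034206.1 (hg19 chromosome 5, 134895267 to 134970564) reaches around the chemokine gene CXCL14. Its control siRNA library held 1.11 FPKM, the AUF1 siRNA library 26.65 and the empty vector library 4.72. With overexpressed p37, p40, p42, p45 and all isoforms it was 5.76, 8.002, 6.04, 13.5 and 7.42. The AUF1 siRNA library was the highest of the 8 and the control siRNA library the lowest, and the ratio was 3.71, or 2.27 against the empty vector. CXCL14 stayed under 1 FPKM in all libraries. AC107884.1 (hg19 chromosome 11, 7448497 to 7533746), tail to tail with the synaptotagmin gene SYT9, was at 2.15 FPKM in the control siRNA library, at 22.5 in the AUF1 siRNA library and at 2.81 in the empty vector library. With overexpressed p37, p40, p42, p45 and all isoforms it was 15.9, 4.49, 3.61, 7.14 and 21.3. It was thus high with the siRNA, with p37 and with all isoforms. SYT9 had its lowest values, 7.75, 7.62 and 7.58 FPKM, in those same 3 libraries, and 8.85 to 15.0 in the others. Its ratios there, -0.42, -0.52 and -0.52, were not called. The pair shares 121 exonic bases, and a relation between both genes was not tested. The high values of AC107884.1 came from different transcripts. ENST00000533693 held 16.4 FPKM with the AUF1 siRNA and 15.5 with all isoforms, and ENST00000530169 held 13.9 with p37. Both were listed at 0 elsewhere, while ENST00000530201 ranged from 2.04 to 7.14 over all libraries.

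The other members named for the knockdown stood under 1 FPKM in the control siRNA library. IFNG-AS1, which is known for supporting interferon gamma transcription in T cells and reaches around the cytokine gene IL26 (hg19 chromosome 12, 68383225 to 68628466), was at 0.56 FPKM in the control siRNA library, at 11.4 in the AUF1 siRNA library and between 0.0015 and 4.24 in the other 6. Its ratio was 2.99. AC011396.2 was at 0.47 FPKM without and 11.2 with the AUF1 siRNA (3.05), and LINC01248 at 0.72 and 12.3 (2.95). CYP1B1-AS1, head to head with the monooxygenase gene CYP1B1, was at 0.72 and 10.8 (2.78), and AL359555.1, head to head with the bactericidal protein gene BPI, at 0.60 and 9.51 (2.71). Against the empty vector their ratios were 1.55 for AC011396.2, 1.64 for LINC01248, 2.45 for CYP1B1-AS1, 1.61 for AL359555.1 and 2.22 for IFNG-AS1, lower in every case. The CYP1B1-AS1 level with the AUF1 siRNA came from ENST00000431999 alone. That transcript was at 3.51 FPKM with p40 and listed at 0 in all other libraries, both controls included.

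On the low side, SNHG7, a host gene of small nucleolar RNAs (hg19 chromosome 9, 139615818 to 139622636), was at 35.7 FPKM in the control siRNA library, at 3.29 in the AUF1 siRNA library and at 17.1 in the empty vector library. Its values with overexpressed p37, p40, p42, p45 and all isoforms were 29.4, 22.4, 17.98, 4.49 and 4.26. The AUF1 siRNA, p45 and all-isoform libraries were low and the other 5 were high, a split taken from these values. The ratio was -3.10 in the knockdown, -1.72 with p45 and -1.78 with all isoforms. The 509-nt transcript ENST00000436596, which holds the ATTTA pair shown above, carried 32.8 of the 35.7 FPKM in the control and was listed at 0 with the AUF1 siRNA, p42, p45 and all isoforms. Its deposited status was LOWDATA in all 8 libraries, and without it the knockdown ratio was 0.11, while the 2357-nt SNHG7 transcript ranged only from 2.22 to 4.49. AL121957.1 (hg19 chromosome 6, 107831007 to 107832925), inside SOBP, was at 12.5 FPKM in the control siRNA library, at 10.5 in the empty vector library and at 1.88 in the AUF1 siRNA library. The overexpression libraries lay between 2.43 and 5.17, so both controls were above all other libraries. Its ratio was -2.23, but the Cufflinks bounds of 2.40 to 25.3 and 0 to 4.54 FPKM overlap.

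**Figure D3:**
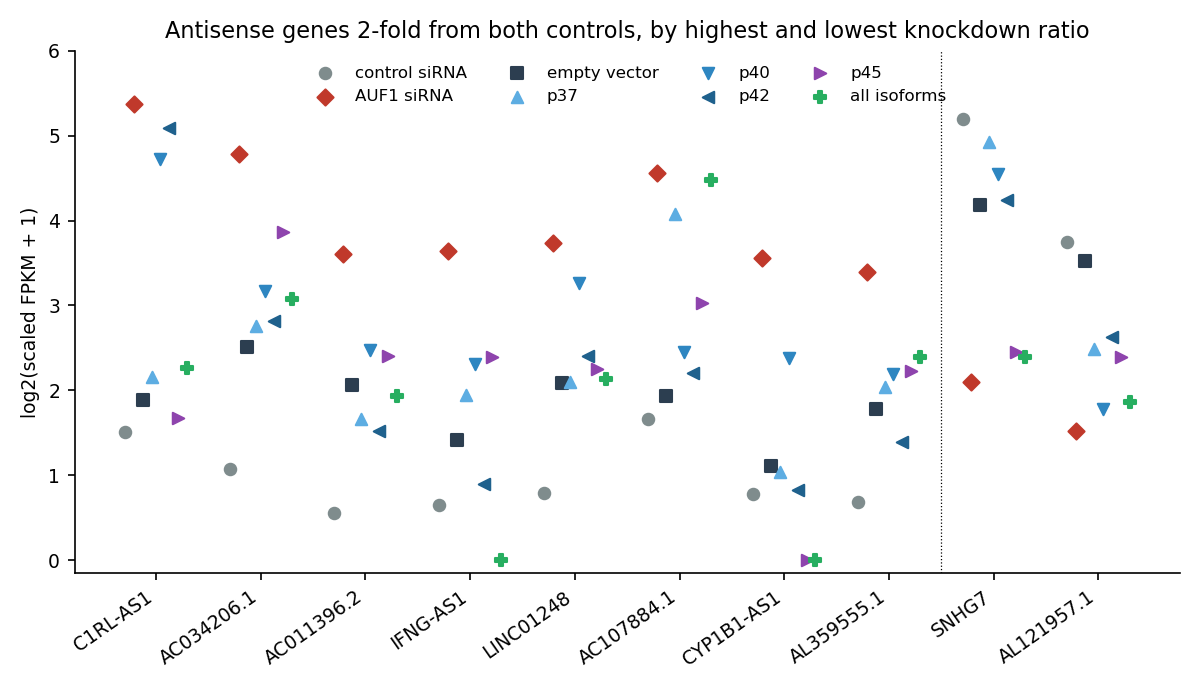
Level of the 8 antisense genes with the highest and, right of the dotted line, the 2 with the lowest ratios of AUF1 siRNA to control siRNA, among those also 2-fold from the empty vector the same way, as log2(scaled FPKM + 1) in each of the 8 libraries (1 symbol per library). The AUF1 siRNA library (diamonds) is the highest for each of the 8, at 9.51 to 40.4 FPKM, C1RL-AS1 is also high with p40 and p42, and SNHG7 is also low with p45 and all isoforms.

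In the knockdown, both genes were measured in 223 pairs. Counted by pair, 32 antisense genes and 18 partners were called higher, and 7 antisense genes and 4 partners lower. Some partners belong to more than 1 pair, and counted once each, 17 of 218 partners were higher (7.80%). The median ratio was 0.12 for the antisense genes and 0.04 for the partners. Of the 32 higher antisense genes, 12 had a partner that was called higher too (37.5%), 1 had a partner called lower and 19 had one that was not called. The partner was called higher in 8.07% of all 223 pairs. Another 28 higher antisense genes had a partner that was not measured. The share was 5 of 11 where exons overlapped and 7 of 21 where they did not.

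Of the 12 antisense genes called higher together with their partner, 7 lie inside it. AP003025.1, inside the neural adhesion gene NTM, was at 0.92 FPKM in the control siRNA library and at 9.31 in the AUF1 siRNA library (2.43), and NTM at 38.4 and 139 (1.83). In the other 6 libraries AP003025.1 ranged from 0 to 6.97 and NTM from 30.001 to 106. TSPEAR-AS2 stood at 12.4 and 65.2 FPKM (2.31) and TSPEAR at 1.41 and 11.3 (2.35). ADARB2-AS1, inside the RNA editing family gene ADARB2, stood at 2.11 and 13.6 (2.22) and ADARB2 at 3.43 and 18.1 (2.10). For these 3 pairs the AUF1 siRNA library was the highest of the 8 for both genes. AL157392.2 with FRMD4A (2.19 and 1.58), AL162457.2 with the cadherin gene CDH4 (1.93 and 1.46), AP001783.1 with the adhesion gene KIRREL3 (1.91 and 1.79) and AC073957.1 with C7orf50 (1.60 and 1.00) had the same layout and no exonic overlap. For AC073957.1 and C7orf50 the control siRNA library was the lowest, at 2.33 and 49.0 FPKM. The AUF1 siRNA library had 9.08 and 99.1, the empty vector library 7.14 and 80.6, and the p37 library 10.4 and 107. The spans of the higher antisense genes had a median of 38.1 kb, against 24.4 kb for those not called.

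Outside this layout, SPRY4-AS1 (7.68 to 26.1 FPKM, 1.64) and the growth factor gene FGF1 (2.18 to 28.0, 3.19) are tail to tail, as are AP000695.2 (1.56) and the tight junction gene CLDN14 (3.18). Head to head, with 77 and 172 shared exonic bases, are AC008514.1 (1.16) with GABRP (1.88) and AC096677.1 (1.09) with CSRP1 (2.03). AC008514.1 was listed at 0 with the empty vector, p40, p42, p45 and all isoforms. AC096677.1 stood at 101 FPKM with the AUF1 siRNA and at 91.6 with p42. POT1-AS1 stood at 4.16 and 13.3 FPKM (1.47) and POT1, a gene for a telomere-binding protein, at 8.55 and 19.2 (1.08), and the pair shares the exonic bases shown above. POT1-AS1 was also high with p40 (12.9) and with all isoforms (21.0) and stood at 2.24 to 3.22 with the empty vector, p37, p42 and p45, while POT1 ranged from 14.6 to 21.5 in those 6 libraries. The POT1-AS1 transcript ENST00000429134 held 10.9, 11.0 and 21.0 FPKM with the AUF1 siRNA, p40 and all isoforms and was listed at 0 elsewhere. Its transcript ENST00000435452 went the other way in the knockdown, from 4.16 FPKM with the control siRNA to 2.42 with the AUF1 siRNA. In 1 pair the calls were opposite, AC100763.1, inside the phosphatase family gene SBF2, at 2.38 and 9.08 FPKM (1.58) where SBF2 stood at 14.3 and 3.12 (-1.89). SBF2 was listed at 0 with p37 and p40. In the low direction AP003068.1, with 504 exonic bases on the vesicle tethering gene VPS51, stood at 59.2 and 26.3 FPKM (-1.14) and VPS51 at 33.5 and 13.6 (-1.24). The empty vector library had 26.1 and 12.6, so here the control siRNA library was the high one.

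**Figure D4:**
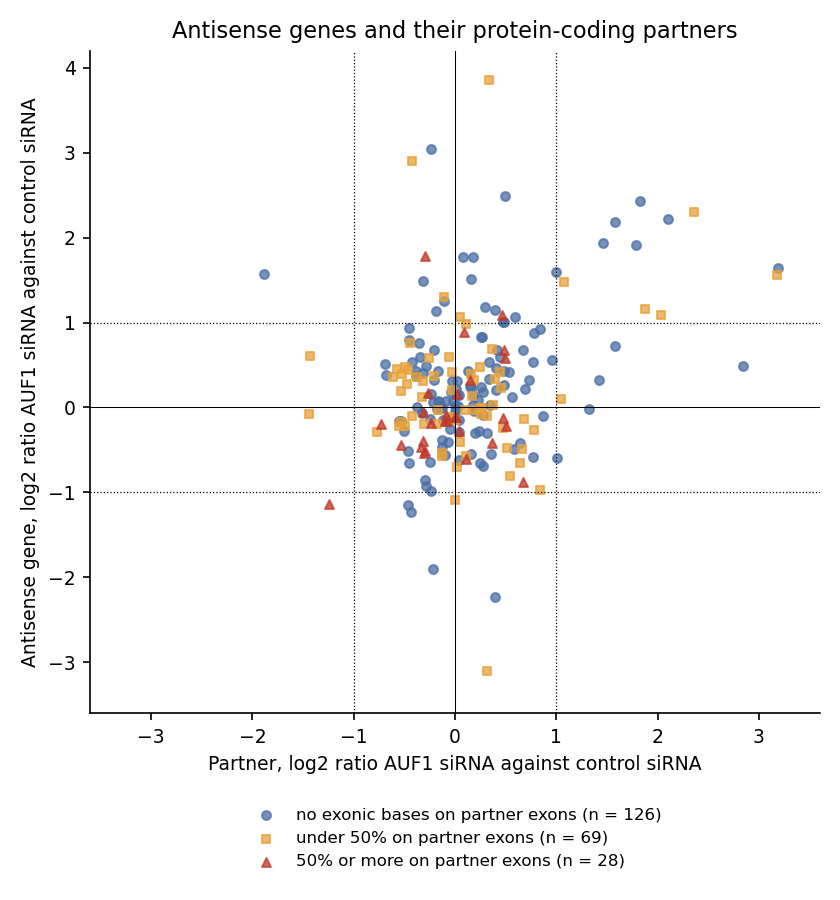
Log2 ratio of the AUF1 siRNA to the control siRNA library for the protein-coding partner (horizontal axis) and the antisense gene (vertical axis) in 223 pairs, by the share of the antisense gene's exonic bases that lie on partner exons. Dotted lines mark 2-fold, the upper right corner holds the 12 pairs in which both were higher, and the triangles, with 50% or more on partner exons, lie closest to the diagonal, with 2 of 28 pairs at a difference of 2-fold or more.

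Pairs with much exonic overlap had the smallest median difference between both ratios in the knockdown. Where 50% or more of the antisense gene's exonic bases lie on partner exons, the median absolute difference between both ratios was 0.20 over 28 pairs, and 2 pairs differed by 2-fold or more. It was 0.63 over 69 pairs with a smaller overlap, 16 of which differed by 2-fold, and 0.40 over 126 pairs without, of which 24 did. The direction was shared in 18 of the 28 pairs, 32 of the 69 and 77 of the 126. In the overexpression comparisons this difference was 0.24 to 0.41 for the pairs with 50% or more, 0.35 to 0.52 for a smaller overlap and 0.29 to 0.38 for none, so the groups lay closer together there. Pairs with 50% or more differed more than those with none with p37 (0.33 against 0.29) and p45 (0.41 against 0.38). They differed less with p40 (0.24 against 0.38), p42 (0.28 against 0.30) and all isoforms (0.31 against 0.32).

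The pentamer of AUF1 was not more frequent in the antisense genes that were higher in the knockdown. ATTTA was searched on the transcript's own strand in the most abundant transcript of each gene, overlapping matches included. It was present in 26 of the 73 higher antisense genes (35.6%), in 128 of the 302 with a sequence that were not called (42.4%) and in 4 of the 8 lower ones. Per kilobase there were 0.92, 1.12 and 2.31 matches. All measured antisense genes had it in 41.3% of transcripts of a median 555 nt, lincRNA genes in 39.1% at 547 nt and protein-coding genes in 58.0% at 1122 nt. Of all 60-nt windows laid end to end over the measured antisense transcripts, 5.63% held it. A match describes letters and not a binding site.

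Genes of RNA turnover, from a list of the exosome, its nuclear adaptors, decapping, exonucleases and small RNA processing, were measured alongside, since they act on noncoding RNA. In the knockdown 0 of 34 were called higher and 2 lower (5.88%), with a median ratio of -0.14 and 22 below 0. All measured genes gave 10.1% higher and 3.27% lower, with a median of -0.04. Protein-coding genes gave 8.53% higher and 3.37% lower, with a median of -0.07. DIS3, the catalytic subunit of the exosome, was at 72.4 FPKM in the control siRNA library, at 3.09 in the AUF1 siRNA library and at 69.5 in the empty vector library. Its values with overexpressed p37, p40, p42, p45 and all isoforms were 55.2, 41.4, 37.4, 67.4 and 9.70. The ratio was -4.17. The all-isoform library was also low, at -2.72. XRN1, the cytoplasmic exonuclease, was at 33.6 FPKM in the control siRNA library, at 6.25 in the AUF1 siRNA library, at 27.5 in the empty vector library and, in the order above, at 27.7, 6.94, 6.89, 18.5 and 24.5 with overexpression. Its ratio was -2.26 in the knockdown and -1.84 and -1.86 with p40 and p42. The relation of either to the antisense genes was not tested.

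With overexpression, the share of antisense genes called against the empty vector was near that of all genes, while against the control siRNA library the share called higher was above it. With p37, 13 of 374 were higher and 9 lower, where 5.72% of all genes were called, 2.89% higher and 2.83% lower. With p40, 20 of 376 were higher and 13 lower, against 6.81% of all genes (3.99% higher, 2.82% lower). With p42, 13 of 380 were higher and 5 lower, against 5.66% of all genes (2.99% higher, 2.66% lower). With p45, 25 of 386 were higher and 13 lower, against 8.18% of all genes (5.07% higher, 3.11% lower). With all isoforms, 16 of 369 were higher and 15 lower, against 6.25% of all genes (3.25% higher, 3% lower). The medians lay between -0.01 and 0.05. Set against the control siRNA library, 7.69% of antisense genes and 3.84% of all genes were higher in the p37 library. The p40 library gave 7.20 and 5%, the p42 library 7.62 and 4.11%, the p45 library 11.6 and 5.91%, the all-isoform library 9.14 and 4.36%, and the antisense medians were 0.11 to 0.16. Against both controls, 5, 10, 5, 19 and 7 antisense genes were higher and 3, 1, 0, 3 and 5 lower, in the same order. The matching counts over all genes were not taken, so these numbers have no background share beside them. Among pairs with both genes measured, 1 pair was higher in both with p40 and none with p37, p42, p45 or all isoforms. The control siRNA library itself differed 2-fold from the empty vector in 28 of 336 antisense genes, 11 of them above it and 17 below, and in 788 of all 10172 genes.

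Some antisense genes differed from the empty vector in most overexpression libraries. AC114956.1 (hg19 chromosome 5, 43515376 to 43525412) was called higher in all 5, against 3.29 FPKM in the empty vector library. The p37 library held 12.03, the p40 library 10.4, the p42 library 9.35, the p45 library 11.4 and the all-isoform library 8.62. Both siRNA libraries, at 6.09 and 7.48, lay between. AC008629.1, head to head with DMXL1, was called higher in 4 and stood at 6.83 to 11.3 FPKM over the 5 libraries, against 3.32. Its 382-nt transcript ENST00000510128 had the status LOWDATA in all 8 libraries. That transcript was listed at 0 in both siRNA libraries and the empty vector library. Each overexpression library listed it at 2.97 to 8.97 FPKM, the highest being p40. Without the FPKM of this transcript, no overexpression library stays 2-fold above the empty vector, so the calls of AC008629.1 rest on a LOWDATA estimate. With p40, the rest of the gene was 2.29 FPKM from ENST00000506486, below the 3.32 of the empty vector. Called lower in 4 were AC093801.1, tail to tail with the lymphatic growth factor gene VEGFC, with 2.34 to 6.93 FPKM against 11.1, AC025423.1, with 4.90 to 7.25 against 15.0, and AL121957.1. The control siRNA library stood at 3.96 FPKM for AC093801.1 and 4.48 for AC025423.1, so for these genes the empty vector library stands apart from both other kinds of library. These calls share that 1 control. The Cufflinks bounds of AC008629.1, AC093801.1, AC025423.1 and AL121957.1 overlapped those of the empty vector in each overexpression library. For AC114956.1 they lay apart only with p37 (7.23 to 16.8 against 0.37 to 6.21 FPKM).

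Single isoforms gave isolated values. HAGLR, a HOXD cluster transcript tail to tail with HOXD3, was lowest with p37 (3.94 FPKM) and p45 (3.38), against 16.5 with the empty vector and 8.97 with the control siRNA, with ratios of -1.82 and -1.996. The other 4 libraries stood at 5.73 to 12.7. With sums weighted by transcript length the ratios were -0.33 and -0.53 and were not called. HOXD3 ranged from 45.8 to 95.7 FPKM, lowest with p37 and highest with p45, so it did not follow HAGLR. With p37, AL022238.2, inside SGSM3, was higher (7.01 to 22.3 FPKM, 1.54) and NCOA7-AS1, inside NCOA7, lower (9.67 to 3.43, -1.27). MNX1-AS2, inside the motor neuron factor gene MNX1, was higher with p42 (4.25 to 12.5 FPKM, 1.37) and lay between 1.03 and 6.78 elsewhere. With p45, ERICH6-AS1 stood at 11.4 FPKM against 1.46 (2.34), and without transcripts under 500 nt the ratio was 0.33. The Cufflinks bounds overlapped for NCOA7-AS1 (1.14 to 5.72 against 5.11 to 14.2 FPKM), for MNX1-AS2 (6.45 to 18.6 against 0 to 8.49) and for ERICH6-AS1 (0.36 to 22.6 against 0 to 3.20). They lay apart for HAGLR with p37 and p45 and for AL022238.2 with p37. VPS33B-DT was listed at 245 FPKM with p45 and at 49.9 to 56.3 in the other 7, but the p45 value came from a 625-nt transcript assembled in that library and the others from a 1948-nt transcript model that GENCODE release 29 does not hold.

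A list of 61 antisense genes with a published function held 42 that GENCODE release 29 types as antisense, and 20 of these had a mean of 1 FPKM or more. HOTAIRM1, a HOXA cluster transcript, ranged from 18.04 with the empty vector to 23.003 with p42, with a median of 19.2. BDNF-AS, known for repressing the neurotrophin gene BDNF, ranged from 16.1 to 21.2 FPKM while BDNF was listed at 0 in 7 libraries. DLEU2, the host of the miR-15a and miR-16-1 precursors, ranged from 26.9 with p40 to 46.4 with the empty vector. EMX2OS, head to head with the homeobox gene EMX2, ranged from 24.0 with the control siRNA to 42.5 with p45, while EMX2 stayed at 1.35 to 2.26. GATA2-AS1 ranged from 10.02 to 16.7 FPKM and stood above GATA2, at 2.70 to 7.96, in all libraries.

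HOTAIR, the HOXC transcript known for acting on the HOXD cluster, was at 9.85 FPKM in the control siRNA library, at 17.6 in the AUF1 siRNA library (0.78) and at 17.0 in the empty vector library. With overexpressed p37, p40, p42, p45 and all isoforms it was 14.3, 9.68, 11.2, 11.7 and 21.0. The control siRNA value was near the low end of this range, and none of the 6 comparisons passed 2-fold. HOXA11-AS, which shares 717 exonic bases with HOXA11, stood at 6.89 FPKM with the empty vector, 6.15 with all isoforms and 13.3 to 15.7 in the other 6 libraries. It was called higher than the empty vector with p42 (1.09), and HOXA11 ranged from 4.40 to 7.47 with no such split. HOTTIP, at the far end of the HOXA cluster, ranged from 0.65 to 2.74 FPKM. TTN-AS1, FGD5-AS1, DDX11-AS1, GABPB1-AS1, HOXD-AS2 and HOXC-AS1 were each listed at 0 in at least 1 library, FGD5-AS1 at 0 with the AUF1 siRNA and 8.52 to 19.2 FPKM in the other 7.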

How the data were processed

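The 8 deposited tables give, per the file headers, an FPKM per transcript with lower and upper bounds, a coverage signal, a transcript length and a status. Per the submitters' processing notes, build hg19 was used, with TopHat2 2.0.6, with Cufflinks 2.0.2 and with Cuffdiff. The annotation release and any strand setting are not given in the sources used here. Per the labels' protocols, 100 ng of total RNA was amplified without ribosomal RNA. Read numbers are unknown here, and depth is known only relative to other libraries.

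Transcripts of 300 nt or more were placed with genes of GENCODE release 29 by transcript ID, then by the table's gene or cluster, and FPKM was summed per gene. Sums were divided by median-of-ratios factors from 13453 genes (0.932 to 1.06). A gene was measured at a mean of 5 FPKM or more over both libraries, above 0 in both and with no failed transcript. The ratio script was checked on simulated data. Coordinates are hg19 from the tables, and overlaps and sequences come from GENCODE release 29 on GRCh38. Python 3.11.15, pandas 2.3.3 and numpy 2.4.6 were used.

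Members, lists and thresholds were chosen with earlier results of these data known. Named genes were the 10 most abundant, the 8 highest and 8 lowest knockdown calls (2 per direction and isoform for overexpression) that passed 2-fold the same way against both controls, those called in 4 or more overexpression comparisons, published antisense genes at 1 FPKM or more, pairs with both genes called and the turnover genes called in the knockdown.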

Additional observations from a re-analysis of the deposited data

How the results depend on the processing

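The knockdown count was 73 higher and 8 lower antisense genes. It was 234 and 27 at a minimum mean of 1 FPKM, 247 and 30 with no minimum, 14 and 1 at a minimum of 20 FPKM, and 43 and 5 among members with no exon on a protein-coding exon. The share higher at these minimums was 23.4, 18.8 and 14.3%, where all genes gave 14.1, 11.3 and 6.27%. With transcripts of 500 nt or more, an alternative chosen after seeing the data, it was 41 and 4, and with no minimum length 14 were lower. The overexpression counts for p37, p40, p42, p45 and all isoforms (22, 33, 18, 38 and 31) were 104, 138, 76, 126 and 105 at a minimum of 1 FPKM, 111, 144, 87, 133 and 115 with none, 2, 1, 2, 5 and 2 at 20 FPKM, and 10, 15, 7, 20 and 20 with transcripts of 500 nt or more. Without exonic overlap the counts called were 13 for p37, 21 for p40, 18 for p45 and 17 for all isoforms. With the control siRNA library in place of the empty vector they were 36 for p37, 37 for p42 and 50 for all isoforms. The length-weighted sum gave 19 for all isoforms and no minimum length gave 34 for p42. Scaling by the 75th percentile moved the knockdown median of all genes from -0.04 to 0.09 and that of the antisense genes from 0.25 to 0.39. Against the empty vector, the antisense median of the AUF1 siRNA library was 0.12. Single values turned sign without LOWDATA transcripts for SNHG7 (0.11 in the knockdown, 0.049 with p45), with transcripts of 500 nt or more for C1RL-AS1 (-0.22 with p40, -0.0089 with p42), and with Ensembl transcripts only, also chosen after seeing the data, for VPS33B-DT with p45 (-5.66), which is then listed at 0 with p45, so that this value is no fold. Weighting by transcript length lowered the knockdown ratios of C1RL-AS1 to 1.43, AC107884.1 to 1.55, IFNG-AS1 to 1.88 and CYP1B1-AS1 to 1.25, moved SNHG7 to -1.31, and ended the calls of VPS33B-DT with p45 (0.68), SNHG7 with p45 (-0.53) and all isoforms (-0.60), C1RL-AS1 with p40 (0.69) and p42 (0.94), and POT1-AS1 with p40 (0.78) and all isoforms (0.92). The cause of these differences was not tested beyond the transcripts each setting removes. No paired analysis was possible because each group held 1 library. Levels near the minimum rest on few reads, and the 1 library per group limits every comparison.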
